A study of Mus musculus with 3 samples.

Results

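Rgs5-high pericytes are a cell class that was selected on measured expression in 3 droplet-based single-cell RNA libraries, made from the synovium and the infrapatellar fat pad of mouse knees. A cell barcode belonged to them when it had at least 500 genes, at most 10% mitochondrial UMIs (unique molecular identifiers, one for each captured transcript) and at least 10 UMIs of Rgs5. It also had at least 3 UMIs of Higd1b, Kcnj8, Abcc9 and Notch3 together, fewer than 5 of Myh11, and 0 of the immune gene Ptprc, the endothelial gene Cdh5 and the fibroblast gene Pdgfra. The rule was met by 322 of 12316 passing barcodes at 1 week after surgery, 47 of 9782 at 2 months and 37 of 8099 in the control library, 406 of 30197 in all. The levels of those 9 genes chose the cells and are not results. All mice carried the wild-type genotype (wt). The operated mice had destabilisation of the medial meniscus (DMM), a knee injury model of osteoarthritis, at 2 months of age, and their tissue was taken 1 week or 2 months later. Control tissue came from 2-month-old mice, so the 1-week library was the one near the controls in age and the 2-month library came from older animals. Tissue of 5 to 10 mice was pooled for each library, digested in trypsin and collagenase and sorted for live cells. The labels do not give the sex of the mice, whether controls had a sham operation, or the time of day at harvest. With 1 library per group there is no replicate, so library, batch and group cannot be told apart, no test between groups was possible, and every interval below covers counting error only.

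Pericytes sit on the outer face of capillaries and small venules, embedded in the basement membrane that they share with the endothelium. They are recruited by endothelial PDGF-B acting on the receptor Pdgfrb, respond to Notch ligands on endothelial cells, help to set vessel diameter and calm the endothelium. Larger vessels carry smooth muscle cells instead, which hold far more of the contractile myosin Myh11, and both kinds together are called mural cells. Rgs5 blunts signalling by G-protein-coupled receptors, Kcnj8 and Abcc9 form an ATP-sensitive potassium channel, and Notch3 is the Notch receptor of mural cells. In the synovium, new vessels and perivascular cells are a known part of joint injury and arthritis.

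Depth differed between the libraries, and the 1-week cells were the most numerous and the most deeply read. The pericyte sums held 3826591 UMIs at 1 week, 456301 at 2 months and 233964 in controls, and the median pericyte held 10352.5, 9128 and 6249 UMIs at 1 week, at 2 months and in controls. Mitochondrial UMIs made up a median 4.36% at 1 week, 4.81% at 2 months and 2.78% in controls. The doublet caller Scrublet marked 4.29%, 4.45% and 4.07% of passing barcodes at 1 week, at 2 months and in controls, among them 4 pericytes of the 1-week library and 0 of the other libraries. Libraries shared 28 to 33 barcode sequences in pairs, and no sequence was a pericyte in both libraries of a pair.

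Markers that the rule did not use fitted mural cells, and only some of them set pericytes apart from mural cells rich in Myh11. The PDGF receptor gene Pdgfrb stood at 655 CPM at 1 week, 828 CPM at 2 months and 654 CPM in controls (CPM is the UMIs of a gene per 1000000 UMIs of the summed cells). Endothelial cells of the same libraries (Cdh5 at least 3 UMIs) had Pdgfrb at 6.57 CPM at 1 week, 6.19 CPM at 2 months and 6.35 CPM in controls, and 321 of 322, 47 of 47 and 34 of 37 pericytes showed at least 1 UMI of it at 1 week, at 2 months and in controls. Among 2336 genes with at least 50 CPM in every pericyte sum, those with the highest ratio to all other passing barcodes were Dlk1, Adra2a, Vtn, Sept4 and Heyl, by at least 18.7-fold in each library. Dlk1 encodes a membrane protein related to the Notch ligands, Adra2a the alpha-2A adrenergic receptor, Vtn the adhesion protein vitronectin and Heyl a Notch target repressor. The next 20 genes included both subunits of the nitric oxide receptor (Gucy1a1 and Gucy1b1), the mitochondrial subunit gene Cox4i2, the gap junction genes Gjc1 and Gja4, the laminin-binding integrin gene Itga7, the endothelial Tie2 ligand Angpt2 and Rgs16. Cells in which the rule genes are high were compared with the rest, so these ratios describe the gate and test nothing. Against mural cells with at least 10 Myh11 UMIs, Dlk1, Adra2a, Vtn and Sept4 were higher in pericytes in each library. Heyl was near level at 1 week (161 against 160 CPM). Gucy1a1 was lower in pericytes, at 409 against 572 CPM at 1 week, 432 against 746 CPM at 2 months and 765 against 1037 CPM in controls.

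Most markers of other cells were low. Pecam1 was at most 1.30%, and Kdr at most 0.188%, of the endothelial level in any library, and in control pericytes Pecam1, Kdr and Tek were at 0. Flt1, a receptor for VEGF and Pgf, reached 11.96% of the endothelial level at 1 week, 9.92% at 2 months and 2.23% in controls. The fibroblast matrix gene Dcn stood at 1.81%, 0.871% and 2.68% of the level in fibroblasts (Pdgfra at least 3 UMIs) at 1 week, at 2 months and in controls. Prg4, the lubricin gene of the synovial lining, reached 2.17% at 1 week, 1.77% at 2 months and 11.7% in controls, and was seen in 37 of 37 control pericytes. The 7 fibroblast markers outside the rule summed to 389.9 CPM at 1 week (370.4 to 410.2), 916 CPM at 2 months (830.3 to 1008) and 3197 CPM in controls (2972 to 3435), with Dpp4 at 0 at 2 months and Pi16 and Dpp4 at 0 in controls. The 7 endothelial markers summed to 117, 167 and 59.8 CPM, the 5 macrophage markers to 236, 94.2 and 184 CPM and the 3 neutrophil markers to 205, 237 and 72.7 CPM at 1 week, at 2 months and in controls. Cells just outside the gate because of at least 1 UMI of Cdh5, Ptprc or Pdgfra numbered 86 at 1 week, 46 at 2 months and 34 in controls, and were deep, with medians of 18273.5, 20375.5 and 14064 UMIs. At the Rgs5 threshold, 8, 1 and 3 cells had 10 to 12 UMIs and passed, and 4, 2 and 3 had 7 to 9 UMIs and did not.

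Pericytes were most frequent at 1 week. They made up 2.61% of passing barcodes at 1 week (Clopper-Pearson 95% interval 2.34% to 2.91%), 0.480% at 2 months (0.353% to 0.638%) and 0.457% in controls (0.322% to 0.629%). The 1-week share was 5.72 times that of controls (4.06 to 8.28), the 2-month share 1.05 times that of controls (0.669 to 1.66) and 0.184 times that at 1 week (0.132 to 0.250). Among barcodes without Ptprc, which leaves out most immune cells, the ratios to controls were 7.04 at 1 week and 1.15 at 2 months. For each 100 endothelial cells there were 26.5 pericytes at 1 week, 6.40 at 2 months and 6.11 in controls. These are shares of the cells that survived digestion and sorting, so a change in the tissue and a change in release from it cannot be told apart.

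Myh11-positive mural cells went the other way, and the sum of both kinds was smaller at 1 week than in controls. Cells with at least 10 Myh11 UMIs were 150 at 1 week, 296 at 2 months and 571 in controls, or 1.22%, 3.03% and 7.05% of passing barcodes. Mural cells were counted as cells that had at least 10 Myh11 UMIs or met every pericyte condition other than the Myh11 limit. They made up 4.56% at 1 week, 3.87% at 2 months and 7.67% in controls, 0.594 and 0.505 times the control share. Mural cells with less Rgs5 and fewer than 10 Myh11 UMIs were not counted. Pericytes were 57.4% of mural cells at 1 week (53.2% to 61.5%), 12.4% at 2 months (9.26% to 16.1%) and 5.96% in controls (4.23% to 8.12%). Among the mural cells counted, the split by Rgs5 and Myh11 thus differed, while together they were a smaller share of the operated libraries. Rgs5 and Myh11 set these counts, so the split is a description.

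Rgs5 also differed in mural cells outside the pericyte gate. Some Myh11-positive cells also met the pericyte conditions on Rgs5 and on Higd1b, Kcnj8, Abcc9 and Notch3 together. They were 66.7% of Myh11-positive cells at 1 week (58.5% to 74.1%), 30.4% at 2 months (25.2% to 36%) and 8.41% in controls (6.26% to 11%). The Rgs5 level of all Myh11-positive cells, which their own gate did not use, was 5243 CPM at 1 week, 2155 CPM at 2 months and 356 CPM in controls. Without any limit on Myh11 the Rgs5-high mural cells numbered 511, 173 and 98, and their share at 1 week was 3.43 times that of controls, against 5.72 times with the limit. The limit falls in a dense part of the distribution: 83 pericytes at 1 week, 15 at 2 months and 9 in controls had 3 or 4 Myh11 UMIs, and 49, 21 and 7 cells had 5 or 6 and stayed out.

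**Figure D1:**
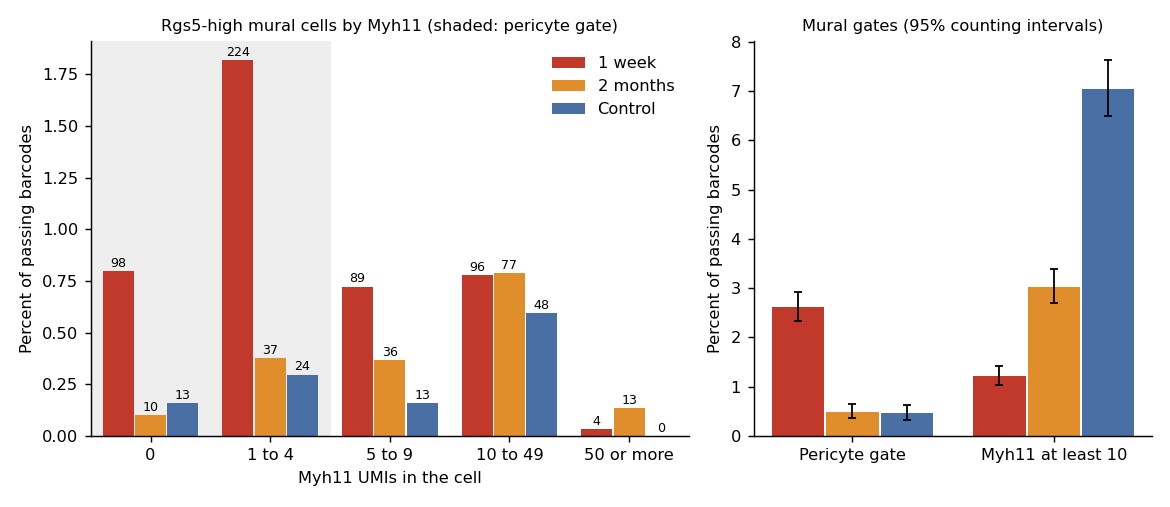
Left, cells that met every pericyte condition other than the Myh11 limit, by Myh11 UMIs per cell, as percent of passing barcodes, with the number of cells above each bar and the pericyte gate shaded; right, percent of passing barcodes in the pericyte gate and with at least 10 Myh11 UMIs, with 95% counting intervals. At 1 week 98 cells had 0 and 224 had 1 to 4 Myh11 UMIs, while Myh11-positive cells were 1.22% at 1 week, 3.03% at 2 months and 7.05% in controls.

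Expression was then compared between the pericyte sums. A gene was compared when the 2 sums together held 50 UMIs of it or more. At 1 week 1644 of 7553 genes differed at least 2-fold from controls (21.8%), 865 higher (11.5%) and 779 lower (10.3%). At 2 months 143 of 2304 genes did (6.21%), 85 higher (3.69%) and 58 lower (2.52%). Between 2 months and 1 week 993 of 7733 genes differed (12.8%), 438 higher (5.66%) and 555 lower (7.18%) at 2 months. The counts depend on depth as well as on the cells, because the control sum is the smallest and more genes reach the UMI minimum where the 1-week sum takes part. Median-of-ratios scaling moved the median log2 ratio of all genes to 0.19 at 1 week and 0.08 at 2 months over controls and to -0.11 for 2 months over 1 week, where it was between -0.02 and -0.01 before. It also changed the split of higher to lower genes to 1217 against 468, 109 against 39 and 332 against 700 in the 3 comparisons. When the 95% counting interval of the ratio also had to leave out 1, the shares were 14.3% at 1 week over controls (6.02% higher and 8.3% lower), 6.21% at 2 months over controls and 9.85% for 2 months over 1 week (5.38% higher and 4.47% lower). Each comparison with controls uses the same control library.

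Identity genes of pericytes were present in all libraries, and most stayed within 2-fold of controls. Of 26 list members tested at 1 week over controls, 3 were at least 2-fold higher and 5 at least 2-fold lower, with a median log2 ratio of -0.26, against -0.02 over all genes. Over all genes 11.5% were higher and 10.3% lower by that much, so the share of higher members was that of all genes. At 2 months 0 of 23 were higher and 1 was lower than in controls (3.69% and 2.52% of all genes), with a median of -0.32. Pdgfrb was close to level, with a ratio of 1.0 at 1 week (0.85 to 1.19) and 1.27 at 2 months (1.05 to 1.54) over controls. The hypoxia-induced mitochondrial gene Ndufa4l2 stood at 942 CPM at 1 week, 647 CPM at 2 months and 1056 CPM in controls. Cox4i2, a lung and vessel form of a respiratory chain subunit, stood at 369.8 CPM at 1 week, 208 CPM at 2 months and 308 CPM in controls. Both stayed within 2-fold of controls.

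The 5 members that were lower at 1 week included adhesion and signalling genes. Vitronectin (Vtn) stood at 122 CPM at 1 week, 403 CPM at 2 months and 338 CPM in controls, 0.36 times the control level at 1 week (0.283 to 0.463) and 3.32 times the 1-week level at 2 months (2.78 to 3.94). The metalloreductase gene Steap4 had 211 CPM at 1 week, 517 CPM at 2 months and 765 CPM in controls. Rgs4, another regulator of G-protein signalling, had 143 CPM at 1 week, 331 CPM at 2 months and 355 CPM in controls. For Vtn and Rgs4 the 2-month library was near the controls and the 1-week library stood apart. Nr2f2, a nuclear receptor of venous vessels, followed with 256 CPM at 1 week, 508 CPM at 2 months and 539 CPM in controls.

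Higher at 1 week were the sphingosine 1-phosphate receptor gene S1pr3, the adhesion gene Mcam and the NG2 proteoglycan gene Cspg4. S1pr3 stood at 186 CPM at 1 week, 61.4 CPM at 2 months and 21.4 CPM in controls, 8.71 times controls at 1 week (3.71 to 26.9), with 5 control UMIs behind the low value. Mcam had 305 CPM at 1 week, 234 CPM at 2 months and 145 CPM in controls, 2.1 times controls at 1 week (1.49 to 3.04). Cspg4 had 99 CPM at 1 week, 54.8 CPM at 2 months and 42.7 CPM in controls. All 3 ran in the order 1 week, 2 months, controls.

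The contractile genes were lower at 1 week as a partial set, not as a whole. One member, Actg2, was at least 2-fold higher and 7 of 24 were at least 2-fold lower at 1 week than in controls, with a median of -0.22, which became -0.01 under median-of-ratios scaling. The shares over all genes were 11.5% higher and 10.3% lower. At 2 months 0 of 19 were higher and 1 was lower than in controls, against 3.69% and 2.52% of all genes. Smooth muscle actin (Acta2) stood at 2661 CPM at 1 week, 2485 CPM at 2 months and 3142 CPM in controls, 0.847 times controls at 1 week (0.786 to 0.914). The actin-binding gene Tagln had 1046 CPM at 1 week, 2082 CPM at 2 months and 2261 CPM in controls, 0.463 times controls at 1 week (0.422 to 0.507). The light chain gene Myl9 had 662 CPM at 1 week, 1054 CPM at 2 months and 1671 CPM in controls, 0.396 times controls at 1 week (0.356 to 0.442). Per cell, Acta2 had a median of 12 UMIs at 1 week (range 0 to 462), 18 at 2 months (0 to 184) and 4 in controls (0 to 118). Summed Acta2 was thus near level in the 3 libraries, with a wide spread between cells, while Tagln and Myl9 were lower at 1 week than in the other libraries.

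The actin nucleator Lmod1 had the lowest ratio of the tested list members at 1 week, with 35.3 CPM in the 1-week, 184 CPM in the 2-month and 303 CPM in the control pericytes. It was 8.6-fold lower at 1 week than in controls (6.36 to 11.5) and 5.22 times higher at 2 months than at 1 week (3.93 to 6.9). Sncg, a synuclein found in mural cells, had 134 CPM at 1 week, 443 CPM at 2 months and 611 CPM in controls. Pdlim3, a protein of actin-anchoring discs, had 40.2 CPM at 1 week, 70.1 CPM at 2 months and 154 CPM in controls. Sncg and Pdlim3 followed the order of Lmod1. Synpo2, an actin-bundling gene, had 48.6 CPM at 1 week, 156 CPM at 2 months and 119.7 CPM in controls. The smooth muscle gamma actin gene Actg2 was seen in 102 cells at 1 week and 9 at 2 months and had no UMI in controls. Its ratio at 1 week was 9.58 with the control sum taken at 3 UMIs. The tropomyosin gene Tpm2 stayed within 2-fold, at 936 CPM at 1 week, 1056 CPM at 2 months and 765 CPM in controls. So did the myosin light chain kinase Mylk, at 479.5 CPM at 1 week, 594 CPM at 2 months and 466 CPM in controls. The 6 smooth muscle markers outside the rule summed to 193 CPM at 1 week, 245 CPM at 2 months (Cnn1 and Casq2 at 0) and 350.5 CPM in controls (Actg2 and Kcnmb1 at 0), and their part in these values was not tested. In Myh11-positive cells the contractile list had a median of -0.89 at 1 week over controls, against -0.01 over all genes.

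The regulatory region of Myl9 is shown because Myl9 is the contractile member lower at 1 week whose promoter window holds a CArG box, the element that serum response factor reads in smooth muscle genes. The RefSeq window covers 250 bases before to 50 bases after the start on build GRCm38.p6, at chr2:156775214-156775513 on the plus strand, with the box, 152 to 161 bases before the start, in capitals.

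Myl9: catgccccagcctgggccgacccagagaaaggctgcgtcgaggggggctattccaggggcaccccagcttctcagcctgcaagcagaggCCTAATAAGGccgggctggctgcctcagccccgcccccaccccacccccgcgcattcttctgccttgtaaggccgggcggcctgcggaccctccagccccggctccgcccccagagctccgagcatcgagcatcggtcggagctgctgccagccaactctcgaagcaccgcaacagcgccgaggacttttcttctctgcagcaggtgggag

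The box reads as a match on both strands. Of 25 contractile genes with a window, 4 hold such a box (Myl6, Myl9, Srf and Vcl), and 1.63% of all 32851 windows do. Of the other 3, Myl6 had 1766 CPM at 1 week, 1821 CPM at 2 months and 1829 CPM in controls. Vcl had 240.4 CPM at 1 week, 289 CPM at 2 months and 261 CPM in controls. Srf had 13.3 CPM at 1 week, 11 CPM at 2 months and 17.1 CPM in controls. Those 3 stayed within 2-fold, so the genes with the box were not lower together.

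**Figure D2:**
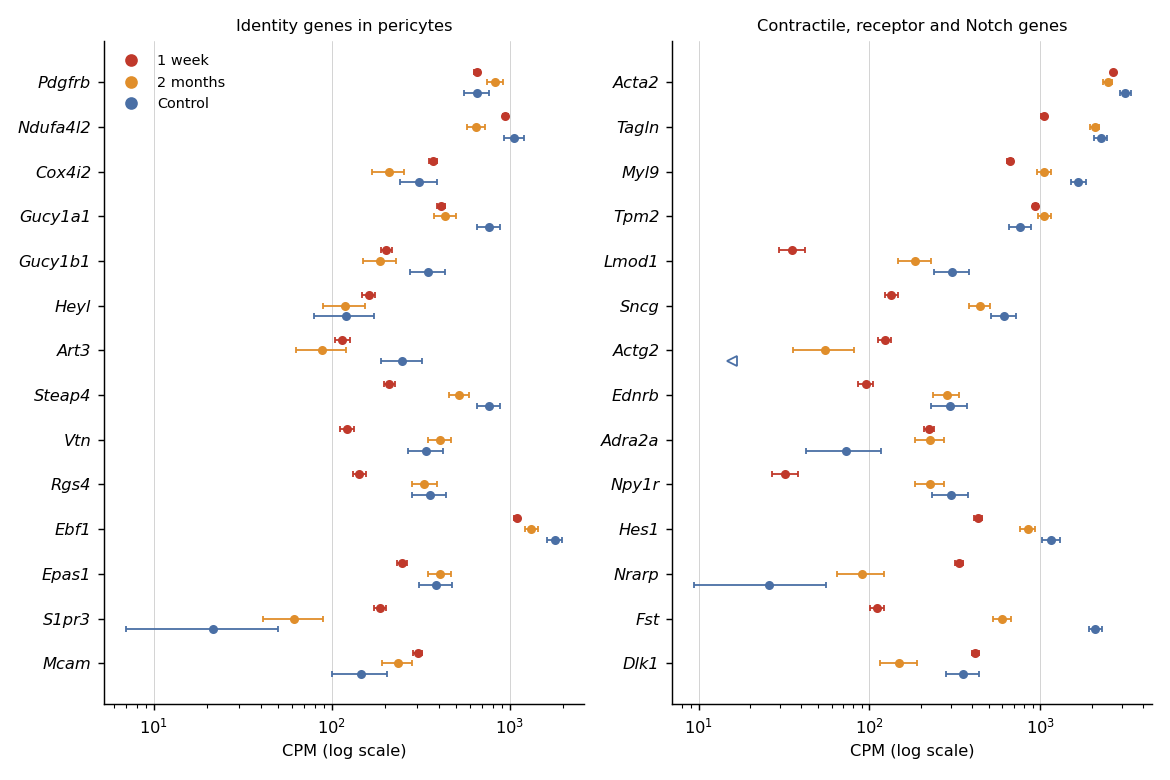
Levels of identity genes (left) and of contractile, receptor and Notch genes (right) in the pericyte sums, in CPM on a log axis, with 95% counting intervals, and an open triangle at the upper limit where a sum was 0. Lmod1, Sncg, Npy1r and Fst sit lowest at 1 week, S1pr3 and Nrarp sit highest at 1 week, and Acta2 and Pdgfrb sit close together.

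The contractile genes differed between pericytes with and without Myh11, by an amount that was not the same in each library. Pericytes with 0 Myh11 UMIs (98 at 1 week, 10 at 2 months and 13 in controls) had Acta2 at 2218 CPM at 1 week, 895 CPM at 2 months and 1031 CPM in controls. Those with 1 to 4 Myh11 UMIs (224, 37 and 24 cells) had Acta2 at 2848 CPM at 1 week, 2922 CPM at 2 months and 4269.5 CPM in controls. For Tagln the values were 912 CPM at 1 week, 966 CPM at 2 months and 454 CPM in controls without Myh11 UMIs. With 1 to 4 Myh11 UMIs Tagln stood at 1102 CPM at 1 week, 2388 CPM at 2 months and 3227 CPM in controls. Without Myh11, Acta2 and Tagln were therefore higher at 1 week than in controls, and with Myh11 they were lower. The direction for Acta2 and Tagln thus depends on which pericytes are counted. Myl9 and Lmod1 were lower at 1 week than in controls on both sides. Without Myh11 UMIs Myl9 stood at 491 against 785 CPM and Lmod1 at 29.1 against 258 CPM. With 1 to 4 they stood at 734 against 2145 CPM and 37.9 against 328 CPM. Tpm2 was higher at 1 week without Myh11 UMIs (838 against 442 CPM) and near level with them (977 against 938 CPM). Over the list, the median at 1 week over controls was 0.18 in pericytes with 0 Myh11 UMIs, against -0.22 in all. Myh11 was part of the rule, so the split is a description. Depth per cell was not matched, and it differed more between libraries than between sides. Without Myh11 UMIs its median was 9817.5 UMIs at 1 week, 9230.5 at 2 months and 6027 in controls. With 1 to 4 it was 10523.5, 9128 and 6325.5 UMIs. A limit of 0 Myh11 UMIs is therefore looser in controls, so the 1-week and control sides are not like cuts.

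For the matrix genes the order of the libraries was the same on both sides of the split. Col4a1 stood at 3051 CPM at 1 week, 1791 CPM at 2 months and 1068 CPM in controls without Myh11 UMIs. With them, Col4a1 stood at 2866 CPM at 1 week, 1221 CPM at 2 months and 1128 CPM in controls. Col1a1 stood at 2894 CPM at 1 week, 1953 CPM at 2 months and 785 CPM in controls without Myh11 UMIs, and at 2149.8 CPM at 1 week, 1028 CPM at 2 months and 525 CPM in controls with them. In both kinds of pericyte the 1-week level was the highest for both collagens.

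**Figure D3:**
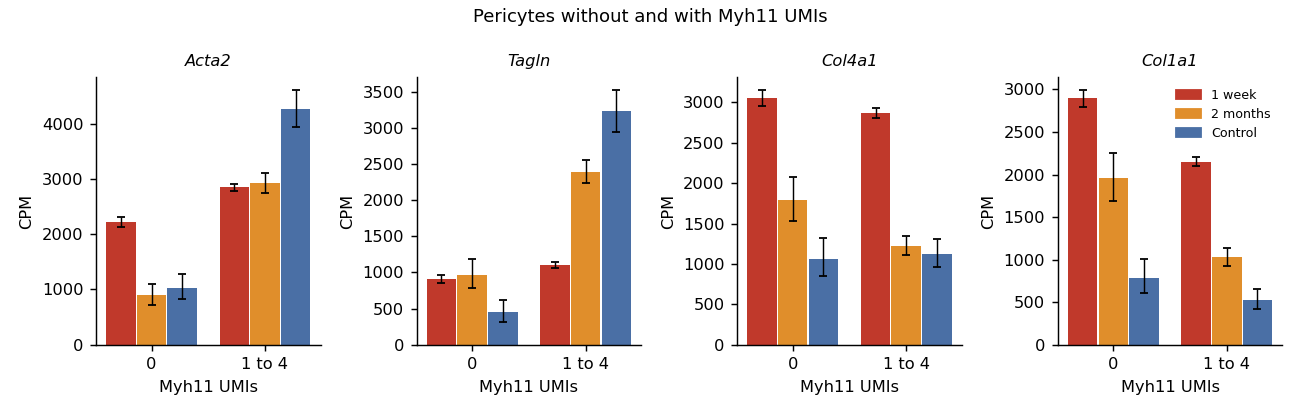
Acta2, Tagln, Col4a1 and Col1a1 in pericytes with 0 and with 1 to 4 Myh11 UMIs, in CPM with 95% counting intervals. For Acta2 and Tagln the order of 1-week and control bars differs between the kinds of pericyte, and for Col4a1 and Col1a1 the 1-week bar is the tallest in each.

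Receptors and channels that set vessel tone were more often lower than higher at 1 week. Of 27 vasoactive genes tested at 1 week over controls, 3 were higher and 7 lower by at least 2-fold, with a median of -0.59 (-0.38 under median-of-ratios scaling), and 2 months over 1 week gave 8 of 27 higher and 3 lower, with a median of 0.38. All genes gave 11.5% higher and 10.3% lower at 1 week over controls, and 5.66% higher and 7.18% lower for 2 months over 1 week. The neuropeptide Y receptor gene Npy1r, which is not on the list and was ranked by its ratio, had 32.1 CPM at 1 week, 226 CPM at 2 months and 299 CPM in controls. It was 9.31-fold lower at 1 week than in controls (6.84 to 12.6) and 7.02 times higher at 2 months than at 1 week (5.35 to 9.2). The endothelin receptor gene Ednrb had 95.1 CPM at 1 week, 283 CPM at 2 months and 295 CPM in controls. Ednra, the other endothelin receptor, had 215 CPM at 1 week, 261 CPM at 2 months and 154 CPM in controls. Ednrb was 0.323 times the control level at 1 week (0.249 to 0.424) and level with controls at 2 months, and Ednra stayed within 2-fold.

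Cacna1c, Ano1 and Pde5a were among the vasoactive genes lower at 1 week. The L-type calcium channel gene Cacna1c stood at 25.9 CPM at 1 week, 83.3 CPM at 2 months and 68.4 CPM in controls. The chloride channel gene Ano1 had 55.4 CPM at 1 week, 140.3 CPM at 2 months and 162 CPM in controls. The cyclic GMP phosphodiesterase Pde5a had 103 CPM at 1 week, 193 CPM at 2 months and 218 CPM in controls. All 3 were at least 2-fold lower at 1 week than in controls and within 2-fold of controls at 2 months. The nitric oxide receptor subunit Gucy1a1 had 409 CPM at 1 week, 432 CPM at 2 months and 765 CPM in controls. Its partner Gucy1b1 had 203 CPM at 1 week, 186 CPM at 2 months and 346 CPM in controls. Both subunits were lower in both operated libraries, by less than 2-fold.

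Adra2a and Ramp1 were higher after surgery. Adra2a, a receptor for noradrenaline, had 224 CPM at 1 week, 226 CPM at 2 months and 72.7 CPM in controls, 3.08 times controls at 1 week (1.91 to 5.32) and 3.11 times at 2 months (1.85 to 5.54). Its level in Myh11-positive cells was lower, at 86.7 CPM at 1 week, 39.5 CPM at 2 months and 10.4 CPM in controls. Ramp1, which forms the receptor for calcitonin gene-related peptide with Calcrl, had 84.9 CPM at 1 week, 188 CPM at 2 months and 42.7 CPM in controls, 4.41 times controls at 2 months (2.29 to 9.52). Both genes were lowest in controls.

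The Adra2a window is shown because the gene was higher in both operated libraries and is one of 4 of 29 vasoactive genes with a window (Adra2a, Ano1, Gucy1a1 and Ramp1) that hold the letters GTGGGAA, read by the Notch effector RBPJ, on either strand. The RefSeq window is chr19:54045009-54045308 on the plus strand of GRCm38.p6, with the match, which lies on the minus strand 78 to 84 bases before the start, in capitals.

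Adra2a: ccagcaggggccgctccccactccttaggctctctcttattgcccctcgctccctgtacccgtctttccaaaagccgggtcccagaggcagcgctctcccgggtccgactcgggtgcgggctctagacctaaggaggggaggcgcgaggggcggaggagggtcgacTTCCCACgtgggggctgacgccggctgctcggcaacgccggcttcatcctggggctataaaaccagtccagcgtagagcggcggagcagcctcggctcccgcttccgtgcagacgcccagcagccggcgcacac

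The letters occur in 6.38% of all windows, and in 2 of 15 Notch list windows (Hey2 and Lfng). Ano1 and Gucy1a1 were lower at 1 week than in controls, so the genes with the letters did not share a direction.

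Notch pathway genes passed 2-fold no more often than all genes did. Of 16 tested at 1 week over controls, 1 was higher and 2 were lower by at least 2-fold, against 11.5% and 10.3% of all genes, with a median of -0.16, or 0.04 under median-of-ratios scaling. Nrarp (chr2:25180758-25183339, plus strand, GRCm38), a feedback inhibitor of Notch signalling, was the one higher, at 334 CPM at 1 week, 89.9 CPM at 2 months and 25.6 CPM in controls, 13 times controls at 1 week (5.96 to 35.5). In Myh11-positive cells Nrarp had 372 CPM at 1 week, 71.1 CPM at 2 months and 110.2 CPM in controls. In endothelial cells Nrarp had 67.2 CPM at 1 week, 56.1 CPM at 2 months and 72.7 CPM in controls. The 1-week level of Nrarp was high in both mural gates and near level in endothelial cells.

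Other Notch targets did not follow Nrarp. The repressor gene Hes1 had 431 CPM at 1 week, 842 CPM at 2 months and 1158 CPM in controls, 0.372 times controls at 1 week (0.327 to 0.425). Heyl had 161 CPM at 1 week, 118 CPM at 2 months and 119.7 CPM in controls, within 2-fold of controls, and Hey1 also stayed within 2-fold. Hes1 ran the other way in endothelial cells, at 2234 CPM at 1 week, 1452 CPM at 2 months and 1086 CPM in controls. Dlk1 stood at 416 CPM at 1 week, 149 CPM at 2 months and 350.5 CPM in controls, 0.425 times controls at 2 months (0.304 to 0.594). The low Hes1 level at 1 week stood beside low immediate-early genes (Fos at 1066 CPM at 1 week, 2522 CPM at 2 months and 6522 CPM in controls), whose part in it was not tested.

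Basement membrane genes were higher at 1 week in 11 of 21 cases. Of 21 tested over controls, 11 were at least 2-fold higher and 1 (Vtn) at least 2-fold lower, with a median log2 ratio of 1.05, against -0.02 over all genes, with the 2 members at 0 in controls taken at 3 UMIs. Those 2 could not come out lower. Over all genes 11.5% were that much higher and 10.3% lower. At 2 months 2 of 16 were higher and 0 lower than in controls (3.69% and 2.52% of all genes), with a median of 0.27, and 15 of the 16 were above a ratio of 1. Of 22 members, 16 stood in the order 1 week above 2 months above controls (72.7%), which 21.4% of all 7915 genes ranked did. In Myh11-positive cells the median at 1 week over controls was 1.20 and in endothelial cells 0.97, while in fibroblasts it was -0.51.

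The collagen IV genes, which build the network of the basement membrane, had the most UMIs of the collagens on the list. Col4a1 had 2921 CPM at 1 week, 1343 CPM at 2 months and 1107 CPM in controls, 2.64 times controls at 1 week (2.33 to 3.0) and 0.46 times the 1-week level at 2 months (0.423 to 0.499). Col4a2 had 1447 CPM at 1 week, 903 CPM at 2 months and 701 CPM in controls, 2.06 times controls at 1 week (1.77 to 2.43). Both chains were highest at 1 week, and at 2 months Col4a1 was 1.21 times (1.05 to 1.41) and Col4a2 1.29 times (1.07 to 1.55) the control level. Col4a1 was seen in 321 of 322 pericytes at 1 week, with a median of 30 UMIs per cell, against 44 of 47 with a median of 7 at 2 months and 35 of 37 with a median of 5 in controls. In endothelial cells Col4a1 stood at 2292 CPM at 1 week, 963 CPM at 2 months and 608 CPM in controls. In Myh11-positive cells it stood at 2065 CPM at 1 week, 633 CPM at 2 months and 429 CPM in controls. In fibroblasts it stood at 148 CPM at 1 week, 308 CPM at 2 months and 413 CPM in controls. Both other vascular gates ran in the same order as pericytes, and fibroblasts ran in the reverse order.

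The 2 collagen IV genes lie head to head and share a promoter region, which is why their sequences are shown together. Their starts are 21 bases apart on GRCm38.p6, Col4a1 reading from the minus strand and Col4a2 from the plus strand. The RefSeq windows, chr8:11312777-11313076 on the minus strand for Col4a1 and chr8:11312555-11312854 on the plus strand for Col4a2, share 78 bases (chr8:11312777-11312854), in capitals, which each window reads on its own strand.

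Col4a1: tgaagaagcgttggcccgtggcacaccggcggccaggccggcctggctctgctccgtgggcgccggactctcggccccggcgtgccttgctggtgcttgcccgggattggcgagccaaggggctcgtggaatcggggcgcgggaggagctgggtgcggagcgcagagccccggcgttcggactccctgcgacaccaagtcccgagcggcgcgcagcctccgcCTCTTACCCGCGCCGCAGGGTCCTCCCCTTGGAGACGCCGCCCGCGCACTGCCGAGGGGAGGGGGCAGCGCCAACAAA

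Col4a2: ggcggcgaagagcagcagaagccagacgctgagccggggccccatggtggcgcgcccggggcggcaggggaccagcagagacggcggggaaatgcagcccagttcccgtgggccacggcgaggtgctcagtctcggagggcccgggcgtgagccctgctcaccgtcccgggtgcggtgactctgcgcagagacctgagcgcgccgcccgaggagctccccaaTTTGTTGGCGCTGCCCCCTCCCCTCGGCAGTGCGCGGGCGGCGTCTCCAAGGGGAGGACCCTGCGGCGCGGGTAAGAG

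Collagens that link the basement membrane to its surroundings were higher too. Col18a1, the source of endostatin, had 1112 CPM at 1 week, 456 CPM at 2 months and 205 CPM in controls, 5.42 times controls at 1 week (4.08 to 7.37) and 2.22 times at 2 months (1.62 to 3.11). Col15a1 (chr4:47208161-47313167, plus strand, GRCm38) had 1288 UMIs in 233 cells at 1 week (337 CPM), 58 UMIs at 2 months (127 CPM) and 0 in controls. With the control sum taken at 3 UMIs its ratio was 26.25 at 1 week, where the 95% counting interval starts at 21.3, and 9.91 at 2 months, and 31% of its 2-month UMIs came from 1 cell. Endothelial cells had more Col15a1 than pericytes in every library, 767 CPM at 1 week, 502 CPM at 2 months and 168 CPM in controls.

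The laminins were not uniform. The beta-1 chain gene Lamb1 had 107 CPM at 1 week, 67.9 CPM at 2 months and 25.6 CPM in controls. The gamma-1 chain gene Lamc1 had 154 CPM at 1 week, 145 CPM at 2 months and 72.7 CPM in controls. Both were lowest in controls. The beta-2 chain gene Lamb2 had 90.9 CPM at 1 week, 215 CPM at 2 months and 167 CPM in controls, 0.546 times controls at 1 week, and was lowest at 1 week. The linker nidogen 1 (Nid1) had 329.8 CPM at 1 week, 171 CPM at 2 months and 149.6 CPM in controls. Perlecan (Hspg2) was level, at 99.8 CPM at 1 week, 96.4 CPM at 2 months and 94 CPM in controls. Sparc, which chaperones collagen, was near level at 7281 CPM at 1 week, 6408 CPM at 2 months and 5958 CPM in controls. The difference was therefore in collagen IV, its linkers and some laminin chains, not in perlecan.

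Many fibrillar matrix and repair genes were also higher at 1 week, and some were at 2 months. Of 39 tested at 1 week over controls, 20 were at least 2-fold higher and 3 lower, with a median of 1.05, and at 2 months 7 of 25 were higher and 0 lower, with a median of 0.61. All genes gave 11.5% higher and 10.3% lower at 1 week, and 3.69% and 2.52% at 2 months. At 1 week over controls the list median was 3.14 in Myh11-positive cells, 2.52 in endothelial cells and 1.73 in fibroblasts. All genes in those gates had medians between -0.01 and 0.06. The rise was thus seen in every gate, and the pericyte median was the lowest. The control sum was 0 for 3 of the 39 at 1 week and was taken at 3 UMIs (165 of all 7553 genes). Those 3 could not come out lower. Of 40 members, 22 (55.0%) stood in the order 1 week above 2 months above controls, which 21.4% of all genes did. A member at 0 in controls could not rank above the other libraries there. Collagen I (Col1a1) had 2370.3 CPM at 1 week, 1227 CPM at 2 months and 615 CPM in controls, 3.85 times controls at 1 week (3.27 to 4.57) and 1.99 times at 2 months (1.66 to 2.41). Col3a1 had 3575 CPM at 1 week, 3853 CPM at 2 months and 1654 CPM in controls, 2.16 times controls at 1 week and 2.33 times at 2 months (2.09 to 2.61). Collagen I was thus intermediate at 2 months, and collagen III was as high at 2 months as at 1 week.

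Other fibril and matrix genes were also lowest in controls. Col5a1, which starts collagen fibrils, had 431 CPM at 1 week, 263 CPM at 2 months and 111 CPM in controls. The collagen VI chain gene Col6a3 had 1786 CPM at 1 week, 1028 CPM at 2 months and 432 CPM in controls. Col12a1, which sits on fibril surfaces, had 263 CPM at 1 week, 121 CPM at 2 months and 55.6 CPM in controls. Each ran in the order 1 week, 2 months, controls. Biglycan (Bgn), a small proteoglycan, had 2408 CPM at 1 week, 1155 CPM at 2 months and 649.7 CPM in controls, 3.71 times controls at 1 week (3.16 to 4.38). Adamts2, which trims procollagens, had 295 CPM at 1 week, 224 CPM at 2 months and 47 CPM in controls, 4.75 times controls at 2 months (2.55 to 9.82). Both were lowest in controls.

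Fibroblasts hold far more of the fibrillar genes, so the collagens are also given as a share of the fibroblast level in the same library. Collagen I reached 16.6% of the fibroblast level at 1 week, 31.1% at 2 months and 17.8% in controls, and Col3a1 22.3%, 45.5% and 22.4%, while Dcn, the fibroblast marker given above, reached 1.81%, 0.871% and 2.68%. Fibroblast collagen I was itself 14308 CPM at 1 week, 3945 CPM at 2 months and 3452 CPM in controls. The summed fibroblast markers were highest in controls, where Prg4 made up 2415 of the 3197 CPM, and they did not run together. Dcn had 119 CPM at 1 week, 112 CPM at 2 months and 470.2 CPM in controls. Lum had 90.4 CPM at 1 week, 32.9 CPM at 2 months and 76.9 CPM in controls. Dcn was thus highest in controls, while Lum was as high at 1 week as in controls within counting error. The part of fibroblast RNA in the collagen values was not tested. Cthrc1, a gene of matrix-making fibroblasts after injury, reached 4.54% of the fibroblast level at 1 week, with 229 UMIs in 142 pericytes, and no UMI at 2 months and in controls. The part of free RNA in the Cthrc1 value was not tested.

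The inhibitors of metalloproteinases split. Timp1 had 323 CPM at 1 week, 103 CPM at 2 months and 21.4 CPM in controls, 15.1 times controls at 1 week (6.45 to 46.6) and 4.82 times at 2 months (1.93 to 15.5), with 5 control UMIs. Timp3 (chr10:86300372-86349506, plus strand, GRCm38), which is held in the matrix, had 389.9 CPM at 1 week, 2334 CPM at 2 months and 2026 CPM in controls, 5.2-fold lower at 1 week than in controls (4.68 to 5.77) and 5.99 times higher at 2 months than at 1 week (5.53 to 6.48). Timp3 was lowest at 1 week in the other gates too. Myh11-positive cells had 394 CPM at 1 week, 1026 CPM at 2 months and 729 CPM in controls. Endothelial cells had 306 CPM at 1 week, 759.9 CPM at 2 months and 801 CPM in controls. Fibroblasts had 54.5 CPM at 1 week, 170.1 CPM at 2 months and 301 CPM in controls. Timp1 was highest and Timp3 lowest at 1 week in pericytes. The membrane protease Adam12 had 308, 10 and 1 UMIs at 1 week, at 2 months and in controls, a ratio of 18.8 at 1 week with a wide interval of 3.35 to 746. Mmp2 had 128 CPM at 1 week, 63.6 CPM at 2 months and 38.5 CPM in controls.

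**Figure D4:**
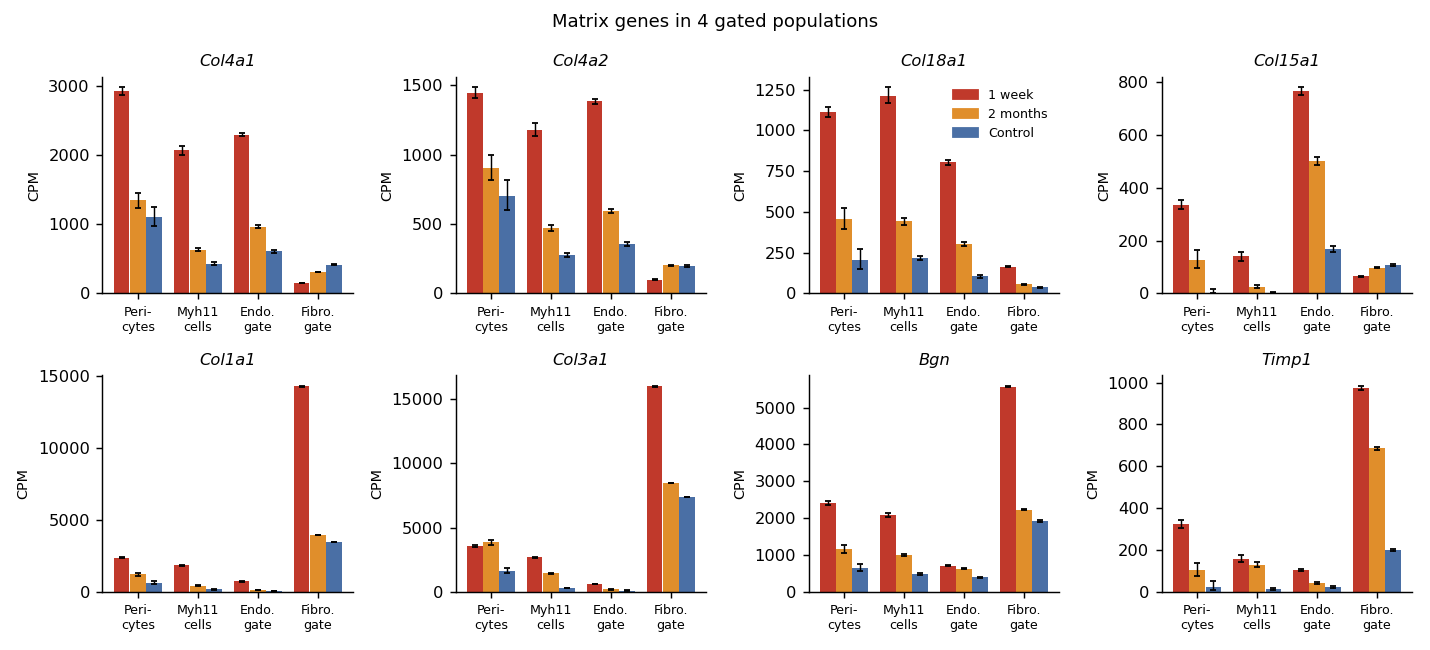
Matrix genes in pericytes and in Myh11-positive, endothelial and fibroblast gates, in CPM with 95% counting intervals, on a separate scale for each gene. The collagen IV bars are tallest in pericytes at 1 week, the Col18a1 bar in Myh11-positive cells at 1 week and the Col15a1 bar in endothelial cells at 1 week, and Col1a1, Col3a1, Bgn and Timp1 are tallest in fibroblasts at 1 week.

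More inflammatory genes were highest at 2 months than in either other library. Of 30 tested for 2 months over 1 week, 14 were at least 2-fold higher and 1 lower, with a median of 0.95, and over controls 6 of 22 were higher and 1 lower at 2 months, with a median of 0.58. At 1 week 3 of 29 were higher and 9 lower than in controls, with a median of -0.29. The shares of all genes were 5.66% higher and 7.18% lower for 2 months over 1 week, 3.69% and 2.52% for 2 months over controls, and 11.5% and 10.3% for 1 week over controls. Of 31 members ranked over the 3 libraries, 17 were highest at 2 months, as were 2247 of all 7915 genes ranked. At 2 months over controls the list median was 0.79 in Myh11-positive cells, 0.06 in endothelial cells and -0.12 in fibroblasts. For 2 months over 1 week it was 0.14 in Myh11-positive cells, 0.30 in endothelial cells and 0.36 in fibroblasts. The monocyte chemokine gene Ccl2 had 139.6 CPM at 1 week, 530.4 CPM at 2 months and 21.4 CPM in controls, 24.8 times controls at 2 months (10.5 to 77.1) with 5 control UMIs. At 2 months 20 of 47 pericytes had a Ccl2 UMI and 1 of them held 48.8% of the UMIs. Without the cell with most Ccl2 UMIs in each library the ratio was 22.0. That setting also took 2 of the 5 control UMIs out, so it cannot show the weight of the 2-month cell alone.

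Other secreted signals followed Ccl2 in part. Ccl7, a related chemokine, had 139, 76 and 1 UMIs at 1 week, at 2 months and in controls. Il6, an inflammatory cytokine, had 134 CPM at 1 week, 423 CPM at 2 months and 137 CPM in controls. Ccl19, which guides lymphocytes and dendritic cells, had 17 CPM at 1 week, 151 CPM at 2 months and 21.4 CPM in controls. Both were high at 2 months and near level between 1 week and controls, with 5 control UMIs for Ccl19. Il6 was 3.09 times the control level at 2 months (2.12 to 4.65) but 1.55 times without the Myh11 limit. In fibroblasts Il6 stood at 30.6 CPM at 1 week, 66.9 CPM at 2 months and 66.2 CPM in controls. In endothelial cells it stood at 51.7 CPM at 1 week, 37.3 CPM at 2 months and 46.9 CPM in controls.

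The homing chemokine Cxcl12 stood at 85.2 CPM at 1 week, 249.8 CPM at 2 months and 577 CPM in controls. In fibroblasts it was also highest in controls, at 696 CPM at 1 week, 1067 CPM at 2 months and 1697 CPM in controls. Icam1, an adhesion molecule for leukocytes, had 20.6 CPM at 1 week, 94.2 CPM at 2 months and 119.7 CPM in controls. The transcription factor Irf1 had 97.5 CPM at 1 week, 291 CPM at 2 months and 346 CPM in controls. These 3 were lowest at 1 week.

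Many interferon genes were higher at 1 week and none was lower by 2-fold. Of 33 tested over controls 13 were at least 2-fold higher and 0 lower, with a median of 0.75, and for 2 months over 1 week 1 was higher and 15 lower, with a median of -0.77. All genes gave 11.5% higher and 10.3% lower at 1 week over controls, and 5.66% and 7.18% for 2 months over 1 week. Over controls, 2 of the 33 had a control sum of 0 and could not come out lower. Over 1 week, 2 of the 33 had a 2-month sum of 0 and could not come out higher. Bst2, a virus tether, had 322 CPM at 1 week, 158 CPM at 2 months and 76.9 CPM in controls, 4.19 times controls at 1 week (2.64 to 7.1). Ly6e, a membrane protein, had 322 CPM at 1 week, 89.9 CPM at 2 months and 72.7 CPM in controls. Irf7, which drives the response, had 84.9 CPM at 1 week, 11 CPM at 2 months and 25.6 CPM in controls. All 3 were highest at 1 week. Ifit1 had 227 UMIs in 57 pericytes at 1 week and none at 2 months or in controls, with 13.7% from 1 cell. The same list had a median of 1.56 in Myh11-positive cells and -0.33 in endothelial cells at 1 week over controls. Of 36 genes tested in endothelial cells, 14 stood above a ratio of 1 and 22 below. By at least 2-fold 2 were higher and 2 lower there, against 880 and 735 of all 11276 genes. In fibroblasts the list median was 0.59. There 16 of 37 were at least 2-fold higher and 1 lower, against 1490 and 1283 of all 13555 genes. The higher level at 1 week was thus seen in both mural gates and in fibroblasts, but not in endothelial cells. Ifitm3 was within 2-fold, at 3207 CPM at 1 week, 2290.2 CPM at 2 months and 1983 CPM in controls, and in 322 of 322 cells at 1 week.

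Dividing pericytes were found mainly at 1 week. At least 3 UMIs over 7 mitotic genes were present in 71 of 322 pericytes at 1 week (22.0%, 17.6% to 27%), 3 of 47 at 2 months (6.38%) and 0 of 37 in controls, where counting error allows up to 9.49%. After thinning each cell to 3000 UMIs the numbers were 43 of 321 (13.4%), 3 of 47 and 0 of 33. At that depth 14 of 150 Myh11-positive cells (9.33%), 61 of 1214 endothelial cells (5.02%) and 169 of 2252 fibroblasts (7.50%) at 1 week met the same limit, against 0 of 557, 3 of 575 and 8 of 2104 in controls. The signal sat in few cells, since 33 pericytes at 1 week held 86.5% of the 2632 UMIs.

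Over the proliferation list 22 of 30 genes were at least 2-fold higher at 1 week than in controls and 0 lower, against 11.5% and 10.3% of all genes. A control sum of 0 was raised to 3 UMIs for 14 of the 30 (165 of all 7553 genes), and the median was 1.75. Those 14 reached the UMI minimum through the 1-week sum alone and could not come out lower. The shares over all genes are therefore not a like comparison for this list. Among the genes named by their ratio, the replication factor Pclaf and the histone gene Hist1h1b had no control UMI and had ratios of 10.3 and 9.99 at 1 week with that sum taken at 3 UMIs. The topoisomerase Top2a had 594 UMIs in 69 cells at 1 week, 33 UMIs in 3 cells at 2 months and 0 in controls. Ube2c, which ends mitosis, had 149 CPM at 1 week, 116 CPM at 2 months and 4.27 CPM in controls, the last from 1 UMI. Stmn1, a tubulin regulator, had 274 CPM at 1 week, 138 CPM at 2 months and 29.9 CPM in controls. The replication clamp Pcna was near level, at 126 CPM at 1 week, 136 CPM at 2 months and 107 CPM in controls. Leaving out dividing pericytes brought the list median to 0.20.

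Genes of crosstalk with endothelium passed 2-fold about as often as all genes. Of 24 tested at 1 week over controls, 3 were higher and 2 lower, against 11.5% and 10.3% of all genes, with a median of -0.05, or 0.16 under median-of-ratios scaling. Placental growth factor (Pgf) had 332, 6 and 0 UMIs at 1 week, at 2 months and in controls, a ratio of 6.77 at 1 week with the control sum taken at 3 UMIs. Vegfa was level at 44.2 CPM at 1 week, 43.8 CPM at 2 months and 47 CPM in controls. Angpt2 was level at 78.9 CPM at 1 week, 83.3 CPM at 2 months and 72.7 CPM in controls. Pgf was thus highest at 1 week, while Vegfa and Angpt2 were level.

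Genes of the TGF-beta and YAP pathways had a median of -0.13 at 1 week over controls (4 of 33 higher and 7 lower, against 11.5% and 10.3% of all genes), or 0.07 under median-of-ratios scaling. Tgfb2, a ligand, had 88.1 CPM at 1 week, 57 CPM at 2 months and 12.8 CPM in controls, the control level from 3 UMIs. The YAP target Ccn2 (connective tissue growth factor) had 35.5 CPM at 1 week, 167 CPM at 2 months and 397 CPM in controls, 11.2-fold lower at 1 week than in controls (8.5 to 14.7). Ccn1, a related target, had 110.3 CPM at 1 week, 287 CPM at 2 months and 513 CPM in controls. Amotl2, which binds YAP, had 12.8 CPM at 1 week, 63.6 CPM at 2 months and 68.4 CPM in controls. The ligand was highest and these targets lowest at 1 week. The DNA-binding inhibitor Id2 had 59.8 CPM at 1 week, 272 CPM at 2 months and 261 CPM in controls. Id4 had 69.3 CPM at 1 week, 469 CPM at 2 months and 333 CPM in controls. Id3 was level, at 2072 CPM at 1 week, 2167 CPM at 2 months and 1842 CPM in controls. Id2 and Id4 were thus lowest at 1 week and Id3 was not.

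Hypoxia and glycolysis genes had a median of 0.05 at 1 week over controls, with 6 of 27 higher and 1 lower, against 11.5% and 10.3% of all genes. Hexokinase 2 (Hk2) had 95.4 CPM at 1 week, 78.9 CPM at 2 months and 25.6 CPM in controls. The oxygen-sensing factor Hif1a had 257 CPM at 1 week, 114 CPM at 2 months and 124 CPM in controls. Ddit4, an inhibitor of mTOR, had 340.3 CPM at 1 week, 256 CPM at 2 months and 72.7 CPM in controls. Hif1a was higher at 1 week alone, and Hk2 and Ddit4 in both operated libraries. Clock genes had a median of -0.36 over 11 genes at 1 week over controls and 0.52 over 12 genes for 2 months over 1 week. Dbp, a clock output gene, had 9.93 CPM at 1 week, 59.2 CPM at 2 months and 21.4 CPM in controls. The time of day at harvest is not in the labels, and its part in these values was not tested.

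Genes known to respond to tissue digestion were mostly lowest at 1 week. Of 37 tested over controls, 0 were higher and 20 at least 2-fold lower at 1 week (10.3% of all genes were), with a median of -1.12, and 0 of 35 higher and 6 lower at 2 months (2.52% of all genes), with a median of -0.31. The immediate-early gene Jun had 1137 CPM at 1 week, 1545 CPM at 2 months and 3954 CPM in controls. Egr1, another, had 341 CPM at 1 week, 1278 CPM at 2 months and 1953 CPM in controls. The heat-shock gene Hspa1b had 35.5 CPM at 1 week, 193 CPM at 2 months and 218 CPM in controls. Each was highest in controls. Of the 37 genes, 24 (64.9%) stood in the order 1 week below 2 months below controls, which 21.3% of all genes did. The list had a median of -1.11 at 1 week over controls in endothelial cells and -0.72 in fibroblasts, but 0.12 in Myh11-positive cells. For 2 months over 1 week the list had a median of 0.82 in pericytes. There 12 of 37 were at least 2-fold higher and 0 lower, against 5.66% and 7.18% of all genes. Whether digestion time or handling differed between libraries was not tested. The part of these genes in the values of Hes1, Ccn1, Ccn2, Irf1 and the inflammatory list was not tested either.

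**Figure D5:**
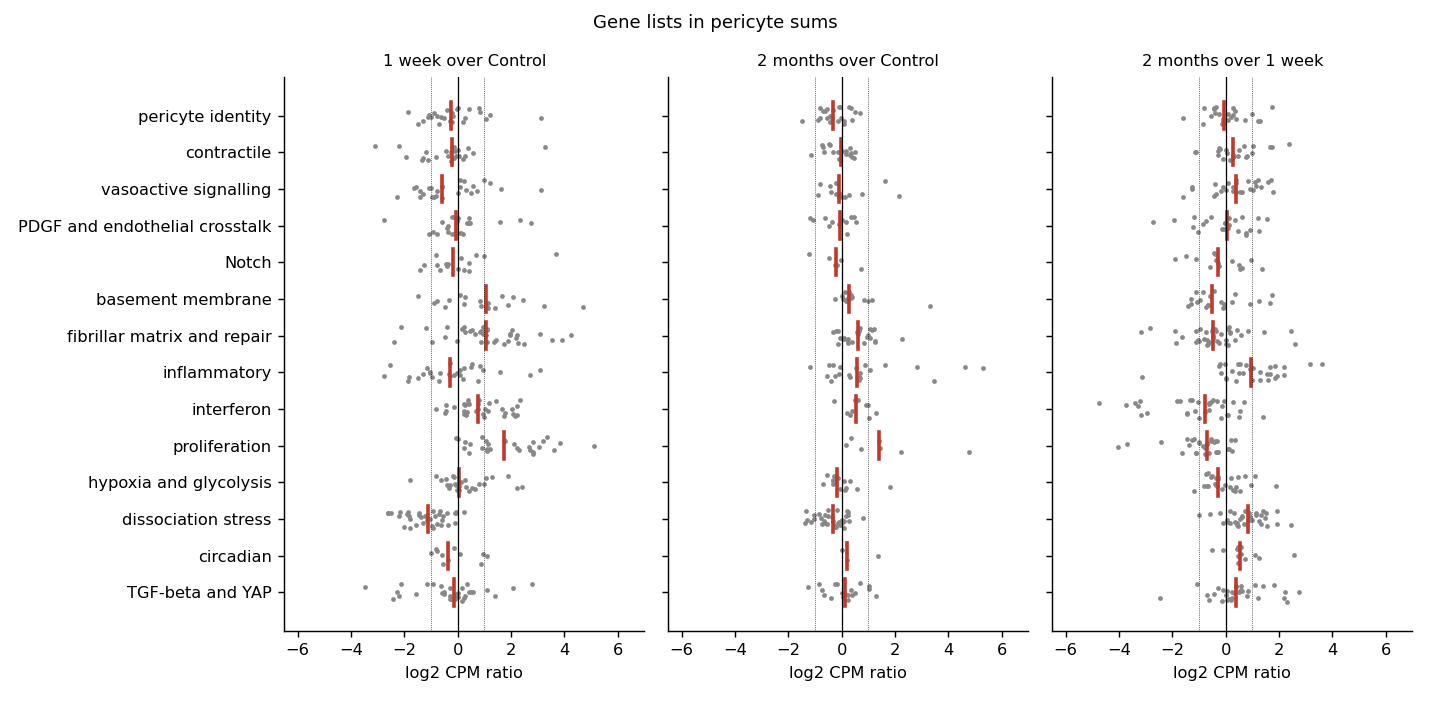
Log2 CPM ratios of the members of 14 gene lists in the pericyte sums, 1 point per gene with at least 50 UMIs in the 2 sums, for 1 week over Control, 2 months over Control and 2 months over 1 week; red bars are list medians and dotted lines mark 2-fold. At 1 week over Control the basement membrane (1.05), fibrillar (1.05) and proliferation (1.75) medians lie right of 0 and the dissociation stress median (-1.12) left of it.

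Among genes ranked by their ratio, follistatin (Fst), a binder of activins, had the lowest ratio of 1 week to controls. Fst (chr13:114452290-114458951, minus strand, GRCm38) stood at 111 CPM in the 1-week, 596 CPM in the 2-month and 2099 CPM in the control pericytes, 18.9-fold lower at 1 week (16.5 to 21.5) and 3.52-fold lower at 2 months (3.03 to 4.1) than in controls. It was seen in 110 of 322, 35 of 47 and 33 of 37 pericytes at 1 week, at 2 months and in controls. Its level in Myh11-positive cells was 114 CPM at 1 week, 473 CPM at 2 months and 219 CPM in controls. In fibroblasts it was 19.9 CPM at 1 week, 61.7 CPM at 2 months and 166 CPM in controls. Pericytes and fibroblasts held most Fst in controls, and Myh11-positive cells at 2 months.

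Txnip, which restrains thioredoxin and glucose uptake, had 101 CPM at 1 week, 316 CPM at 2 months and 1077 CPM in controls. Gstm1, a glutathione transferase that belongs to a family of close copies, had 117 CPM at 1 week, 649 CPM at 2 months and 987 CPM in controls. Both were highest in controls. The fatty-acid transporter gene Cd36 had 25.9 CPM at 1 week, 39.4 CPM at 2 months and 197 CPM in controls. Fabp4, a fatty-acid carrier of capillary endothelium and fat, had 1577 CPM at 1 week, 1455 CPM at 2 months and 3872 CPM in controls. As a share of the endothelial level, Fabp4 was 34.2%, 30.5% and 30.9% at 1 week, at 2 months and in controls, while Pecam1 was at most 1.30%. The neurotrophin receptor gene Ntrk2 had 38.7 CPM at 1 week, 162 CPM at 2 months and 274 CPM in controls. Fam124a had 20.6 CPM at 1 week, 65.7 CPM at 2 months and 197 CPM in controls. Tsc22d1 had 250.4 CPM at 1 week, 324 CPM at 2 months and 851 CPM in controls. Each of these was highest in controls.

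Higher at 1 week was Cd248 (endosialin), a surface protein of activated perivascular cells, at 312 CPM at 1 week, 74.5 CPM at 2 months and 29.9 CPM in controls. Heme oxygenase 1 (Hmox1) was also higher, at 190.0 CPM at 1 week, 21.9 CPM at 2 months and 12.8 CPM in controls. Hilpda, which coats lipid droplets, had 137 CPM at 1 week, 76.7 CPM at 2 months and 8.55 CPM in controls, with 65.7% of the 2-month UMIs in 1 cell. These 3 had between 2 and 7 control UMIs. The surface glycoprotein Thy1 had 630.3 CPM at 1 week, 600.5 CPM at 2 months and 197 CPM in controls. S100a4, a calcium-binding protein, had 2466 CPM at 1 week, 925 CPM at 2 months and 308 CPM in controls, with 59% of the 2-month S100a4 UMIs in 1 cell. Without the cell with most S100a4 UMIs in each library, the 2-month ratio to controls was 1.92. Comp, a cartilage and tendon matrix gene listed among the lowest at 1 week, had 84% of its control UMIs in 1 cell. Its ratio of 0.146 became 0.844 without the cell with most Comp UMIs in each library.

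The genes named for being higher at 2 months than at 1 week were mostly low at 1 week rather than high at 2 months. Ccn3, a matrix-bound signalling protein, had 8.62 CPM at 1 week, 173 CPM at 2 months and 132 CPM in controls, 20.1 times higher at 2 months than at 1 week (13.2 to 31.1). Enpp2 (autotaxin), which makes lysophosphatidic acid, had 29.5 CPM at 1 week, 228 CPM at 2 months and 201 CPM in controls. Both were near the control level at 2 months. Syn3 (chr10:86055125-86498896, minus strand), in which Timp3 lies on the other strand, had 12.8 CPM at 1 week, 142 CPM at 2 months and 42.7 CPM in controls, and its UMIs cannot be told apart from misassigned Timp3 reads here. Lars2, a mitochondrial leucine tRNA synthetase, had 125 CPM at 1 week, 710.1 CPM at 2 months and 158 CPM in controls, with 142 CPM at 1 week, 699 CPM at 2 months and 168 CPM in controls in fibroblasts. In endothelial cells Lars2 had 174 CPM at 1 week, 963 CPM at 2 months and 203 CPM in controls. Lars2 was thus highest at 2 months across the gates. Clec2d, a ligand of natural killer cell receptors, had 92.2 CPM at 1 week, 193 CPM at 2 months and 55.6 CPM in controls.

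Lower at 2 months than at 1 week were interferon genes and others. Ifi27l2a had 261 CPM at 1 week, 19.7 CPM at 2 months and 64.1 CPM in controls. Rtp4 had 59.3 CPM at 1 week, 2.19 CPM at 2 months and 12.8 CPM in controls. Basp1, a membrane-bound protein, had 66.4 CPM at 1 week, 2.19 CPM at 2 months and 4.27 CPM in controls. All 3 were highest at 1 week. The transcription factor Sox11 had 226, 2 and 0 UMIs at 1 week, at 2 months and in controls. Gdpd3 had 488, 0 and 30 UMIs in the same libraries, and endothelial cells had 118 CPM at 1 week, 2.03 CPM at 2 months and 117 CPM in controls. Gdpd3 was thus at or near 0 at 2 months in both gates, and 1 week and controls were level in each.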

How the data were processed

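UMI counts per gene and cell barcode were deposited as filtered matrices of 32285 genes, written by Cell Ranger 5.0.0 (control, 1 week) and 5.0.1 (2 months) per the file headers, while the submitters' processing notes name Cell Ranger 6.0.1 and the build mm10. Barcodes were kept at 500 genes or more and at most 10% mitochondrial UMIs, and the gate was applied to the counts as deposited. UMIs of the gated cells were summed per library and divided by the sum (CPM). Exact Poisson intervals were used for CPM, Clopper-Pearson intervals for shares and conditional binomial intervals for ratios, all at 95%. In a ratio, a sum of 0 was raised to 3 UMIs. A gene with a control sum of 0 reached the UMI minimum through the other sum alone and could not come out lower, in any list. The calls were run on counts simulated from the pericyte sums with known changes and counting error only. That simulation held no variation between cells, mice or libraries, so it cannot show how the calls fare against it.

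A gene was called at 2-fold or more, provided that both sums together held 50 of its UMIs, and rule genes were left out. Comparison gates were Myh11-positive cells (at least 10 Myh11 UMIs), endothelial cells (at least 3 Cdh5 and fewer than 3 Rgs5 UMIs) and fibroblasts (at least 3 Pdgfra and fewer than 3 Rgs5 UMIs). Named genes were the 10 highest and 10 lowest ratios against controls, and 8 each for 2 months over 1 week, from genes with 100 UMIs over both sums and 20 CPM in a library, the 25 leading genes, and examples from 14 gene lists. Predicted, sex-linked, ribosomal and mitochondrial genes and markers of other cell types were left out of the ranking. Some genes that meet this rule are not reported here. The members, the lists and the alternatives were chosen with earlier results of these data known.

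Alternatives changed the Rgs5 threshold, the Myh11 limit, the mitochondrial filter, doublets (Scrublet in scanpy 1.11.5), depth, weights of cells, scaling and the UMI minimum. Gene positions are from GENCODE vM21 (GRCm38) and promoter windows from RefSeq (GRCm38.p6). Python 3.11.15, numpy 2.4.6, scipy 1.17.1, pandas 2.3.3 and matplotlib 3.10.9 were used.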

Additional observations from a re-analysis of the deposited data

Results flagged for a closer look

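Of the genes named by their ratio, 2 differed at least 2-fold from controls in opposite directions in pericytes and in Myh11-positive mural cells of the same libraries. H2-M9, a member of a family of near-identical class I genes whose reads may be split between copies, stood at 23.8 CPM at 1 week, 153 CPM at 2 months and 179.5 CPM in control pericytes, a ratio of 0.132 at 1 week over controls (0.0909 to 0.196). In Myh11-positive cells H2-M9 stood at 17.2 CPM at 1 week, 22.2 CPM at 2 months and 1.24 CPM in controls. The pericyte UMIs came from 48, 10 and 6 cells at 1 week, at 2 months and in controls.

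Fst stood at 111 CPM at 1 week, 596 CPM at 2 months and 2099 CPM in control pericytes, a ratio of 0.284 at 2 months over controls. In Myh11-positive cells Fst stood at 114 CPM at 1 week, 473 CPM at 2 months and 219 CPM in controls, so the 2-month level was above the control level there. With 1 library per group, the difference between the cell classes was not tested for either gene.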

How the results depend on the processing

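No paired analysis was possible because each group is 1 library, so the groups share only 1 replicate number. Without a Myh11 limit (added, like the interval rule and the leaving out of dividing or single cells, after the data were seen) the pericyte share was 3.43 times controls at 1 week and, at 2 months, 0.426 times 1 week, against 5.72 and 0.184. With 0 Myh11 UMIs allowed, the 2-month share was 0.637 times controls and 0.128 times 1 week, and after thinning it was 0.256 times 1 week.

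Counts of genes past 2-fold moved with depth and filters. At 1 week over controls, 865 higher genes became 528 after thinning, 327 at a minimum of 200 UMIs and 455 with intervals that leave out 1. The 779 lower genes became 369 with 0 Myh11, 380 after thinning, 468 under median-of-ratios scaling, 514 without dividing pericytes, 2421 at a minimum of 10 UMIs and 182 at 200. At 2 months over controls, 85 higher genes became 44 with 0 Myh11, 234 without a Myh11 limit, 733 at 10 UMIs and 18 at 200, and 58 lower genes became 27, 158, 611 and 13 in the same settings. For 2 months over 1 week, 438 higher genes became 217 with 0 Myh11, 246 after thinning, 1351 at 10 UMIs and 115 at 200. The 555 lower genes became 323 after thinning, 365 without dividing pericytes, 885 at 10 UMIs, 129 at 200 and 346 with intervals that leave out 1. The higher share of calls moved by over 10 percentage points under scaling, from 52.6% to 72.2%, 59.4% to 73.6% and 44.1% to 32.2% in the 3 comparisons, and was 30.4%, 42.1% and 64.2% at 1 week over controls with 10 UMIs, the interval rule and 200 UMIs.

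List medians kept their sign in every setting for basement membrane (0.29 to 1.25), fibrillar matrix (0.95 to 1.47) and stress genes (-1.12 to -0.92) at 1 week over controls and for inflammatory genes at 2 months over 1 week (0.76 to 1.21). With 0 Myh11 UMIs the contractile median was 0.18 at 1 week over controls and -0.30 at 2 months over 1 week (0.86 without a limit), where it was -0.22 and 0.27. With 0 Myh11 the identity median at 2 months over 1 week was 0.29. The proliferation median of 1.75 at 1 week over controls became 1.05 with 0 Myh11, 3.51 without a limit and 0.20 without dividing cells. At 2 months over controls it was -0.091 with 0 Myh11, against 1.41. Over 1 week it became -1.20 after thinning, -1.70 without a Myh11 limit, 0.12 without dividing cells and -1.34 without the cell with most UMIs of each gene, against -0.70. The 2-month interferon median of 0.55 over controls was 0.0876 without a Myh11 limit and 0.11 at 10 UMIs, and hypoxia was -0.34 after thinning. The circadian median of 0.52 at 2 months over 1 week was 0.21 with 0 Myh11, 0.29 without a limit, 0.42 under scaling and 0.42 without the top cells, and the TGF-beta and YAP median of 0.38 was 0.69 at 5% mitochondrial UMIs.

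Of 56 ratios of ranked genes, 51 to 56 stayed past 2-fold in each setting with all of them, 41 of 42 with 0 Myh11 and 52 of 52 without dividing cells. Comp at 1 week over controls reversed to 1.71 after thinning. At 2 months over controls Il6 (1.55), Ddit4 (1.92), Fos (0.634) and Jun (0.652) were under 2-fold without a Myh11 limit, S100a4 (1.13) at 5% mitochondrial UMIs, Ccn2 (0.707) after thinning, Tsc22d1 (0.582) with 0 Myh11, and Cxcl12 in 6 settings. Beyond the construction of each setting, the cause was not tested. The 37 control pericytes limit every comparison with controls, and a gene below 50 UMIs in the 2 sums was not compared.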
